A study of Homo sapiens with 9 samples.

Results

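The genes of the proteasome, the protease complex that degrades ubiquitin-tagged proteins, were compared between LIM1215-parental cells and the cetuximab-resistant populations LIM1215-R1 and LIM1215-R2. Members were all listed symbols that start with PSMA, PSMB, PSMC, PSMD, PSME, PSMF or PSMG followed by a number alone, with at least 90 counts summed over the 9 libraries. The naming rule matched 48 of 58920 symbols, and 44 reached the count limit. LIM1215 is a colorectal cancer cell line, and cetuximab is an antibody against the epidermal growth factor receptor. LIM1215-R1 and LIM1215-R2 were each raised from the parental line under increasing cetuximab, while LIM1215-parental cells were grown alongside without the antibody. Both resistant lines are heterogeneous populations and not clones, and each is 1 selection. RNA of untreated cells was sequenced in 3 libraries per line, which the study calls technical replicates, so that the p-values describe these libraries and a difference between cultures cannot be told apart from a difference between lines.

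The proteasome consists of a barrel-shaped core particle, in which alpha rings enclose beta rings that carry the proteolytic sites, and a regulatory particle that binds ubiquitin chains, unfolds the substrate and threads it into the core. Interferon induces alternative catalytic subunits that replace the constitutive ones and form the immunoproteasome, which alters the peptides supplied for antigen presentation. When the proteasome is inhibited, for example by bortezomib, which binds the PSMB5 site, the transcription factor NRF1, encoded by NFE2L1, raises the transcription of many subunit genes together.

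Total counts per library lay between 13737416 and 18725014, and the TMM scaling factors between 0.984 and 1.02. Of 10 markers of colorectal epithelium, 9 were counted and KRT20 was at 0. Their summed level in CPM (counts scaled to the size of the library) was 12865.8 to 13230.6 in parental libraries, 16258.3 to 16531.3 for LIM1215-R1 and 14760.4 to 15155.5 for LIM1215-R2. In both resistant lines KRT8, KRT18, KRT19 and VIL1 were called higher and EPCAM, CDX1, CDX2 and CDH17 lower, and the part of this in the results for the proteasome was not tested. The summed level of the 6 leukocyte markers was 7.2 to 10.6 CPM in parental libraries, 11.7 to 14.6 CPM in those of LIM1215-R1 and 8.56 to 10.8 CPM in those of LIM1215-R2, nearly all of it CD68, with PTPRC and CD3E at 0. Markers of fibroblasts summed to at most 3.01 CPM and those of endothelium to at most 0.722 CPM.

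The 4 symbols below the count limit were PSMA8, a core subunit of the testis, PSMB11 of the thymus, the immunosubunit PSMB9 and the structural core subunit PSMB3. PSMA8, PSMB11 and PSMB3 had 0 counts in all 9 libraries, which at 3 counts allows at most 0.16 to 0.218 CPM per library. PSMB9 had 3 counts in all, 1 in LIM1215-R1 replicate 2 and 2 in LIM1215-R2 replicate 1. PSMB3 is an obligate part of the core particle, and its exons (chr17:38752741-38764225, GRCh38.p14) are 100% covered by an alternate sequence of hg38, as are those of PSMB8 and PSMB9 in the major histocompatibility complex on chromosome 6. Of 462 protein-coding genes covered in this way 57.8% had 0 counts, against 21.2% of the 18800 genes without cover. Reads that fit a chromosome and an alternate sequence equally well can be lost in counting, so the levels of these 3 genes are uncertain, and whether alternate sequences were part of the alignment was not tested.

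Most subunit genes were higher in LIM1215-R1 than in LIM1215-parental cells, by small steps. Of the 44 members, 23 passed an adjusted p of 0.01 as higher and 1 as lower (edgeR quasi-likelihood test, adjusted over 19102 genes), where 14.0% of all genes tested were called higher and 13.4% lower. Highly expressed genes are called more often, and 40 members had a mean of at least 50 CPM. At that level 24.3% of 4770 genes were called higher and 19.5% lower. The median log2 fold change was 0.18 over the members and -0.01 over all genes. The fitted log2 fold change was above 0 for 40 of 44 members, against 48.9% of all genes and 52.5% of those of at least 50 CPM. For 28 members each LIM1215-R1 library exceeded each parental one, against 21.6% of all genes and 31.5% at that level, and for 2 each was lower, against 22.4% and 27.3%.

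In LIM1215-R2, 10 members were called higher and 3 lower against LIM1215-parental cells, with 12.3% of all genes called higher and 11.6% lower, and 21.8% and 17.1% among genes of at least 50 CPM. The members' share called higher was therefore near that of genes of like level. Their median log2 fold change was 0.10, against 0.00 over all genes. It was above 0 for 34 of 44 members, against 49.6% of all genes and 54.0% of those of at least 50 CPM. In 22 members each LIM1215-R2 library exceeded each parental one, against 21.2% of all genes and 32.5% at that level, and in 4 each was lower, against 21.6% and 26.8%. Both comparisons use the same 3 parental libraries, so their results are not independent of each other.

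No member reached an absolute log2 fold change of 1.5, the size the study asked of a differentially expressed gene. With edgeR, 0 of 44 members were called by that rule against LIM1215-parental cells, where 5.14% of all genes were called for LIM1215-R1 and 4.82% for LIM1215-R2, but 0.901% and 0.818% of genes with at least 50 CPM, and the DESeq2 Wald test also called 0. An unadjusted p below 0.05 was found for 33 members for LIM1215-R1 and 23 for LIM1215-R2. The share of all genes below that limit was not computed. These counts, and the later ones with an unadjusted p, therefore have no background to be read against. Changes of members at most reached 0.42 and -0.33 on the log2 scale.

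**Figure D1:**
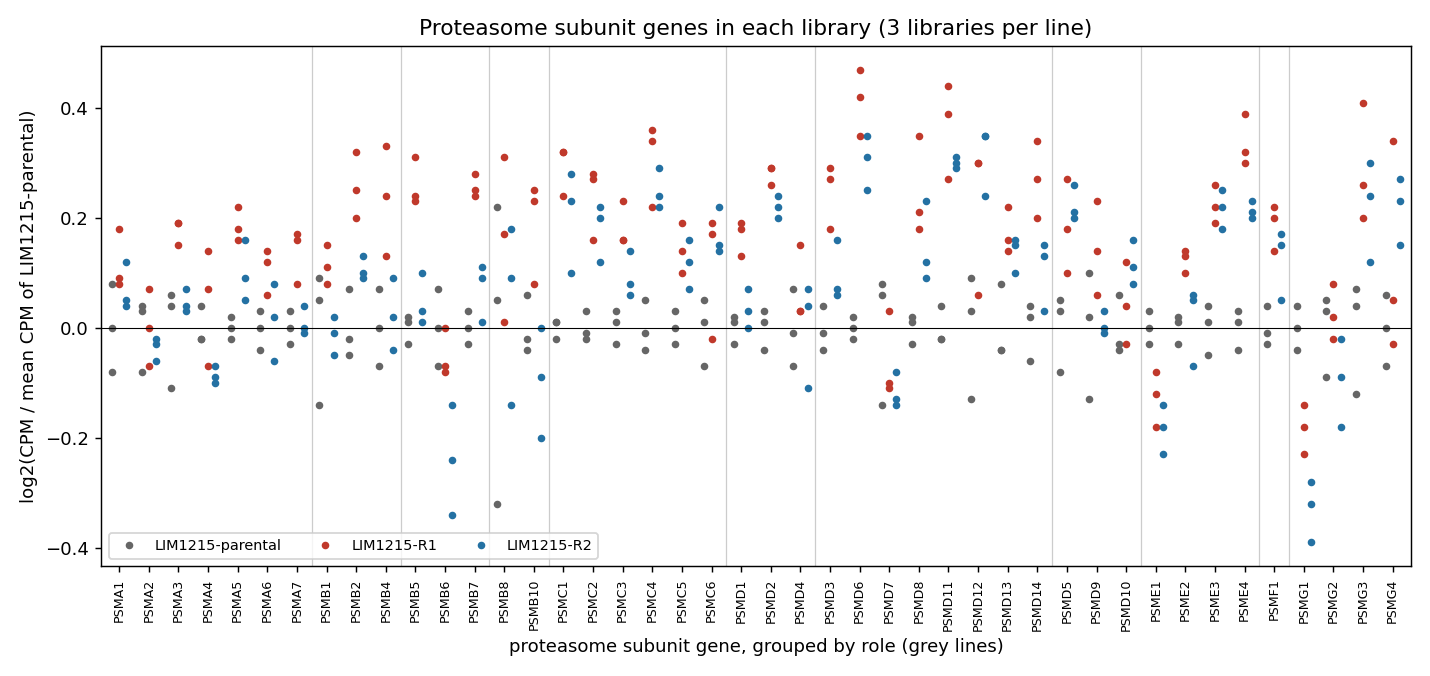
Level of the 44 members in each library as log2 of CPM over the mean CPM of LIM1215-parental, with 1 point per library, 3 libraries per line, and grey lines between roles. Most LIM1215-R1 points lie above 0, LIM1215-R2 points often lie between LIM1215-R1 and parental points, and PSMG1 and PSME1 lie below 0 in both resistant lines.

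**Figure D2:**
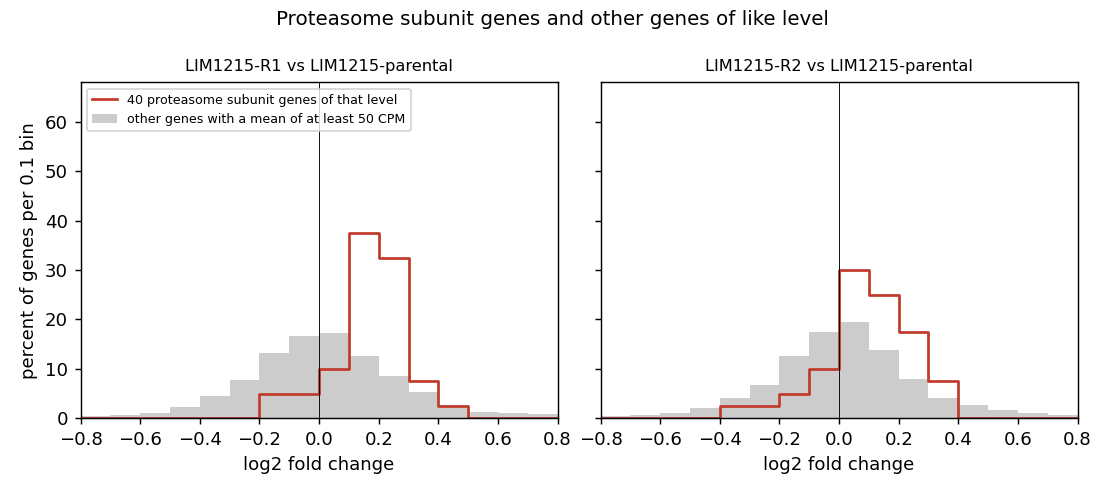
Percent of genes per bin of 0.1 on the log2 fold change axis, in grey for genes with a mean of at least 50 CPM that are not members and as a red outline for the 40 members of that level. The members' outline is shifted to the right, with medians of 0.18 (LIM1215-R1) and 0.10 (LIM1215-R2), and the axis ends before the most changed genes.

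Promoter windows of the members were searched for motifs of factors known to act on proteasome genes. RefSeq windows on GRCh38.p14, from 250 bases before to 50 after a transcript start, were found for 42 of the 48 genes of the naming rule and for 27305 genes in all. The letters TGACNNNGC, the core of the antioxidant response element bound by NRF1 and NRF2, stood on either strand in the windows of 15 of 42 genes, or 35.7%, against 16.1% of all genes. The interferon response type, GAAA repeated after any 2 bases, stood in 7 of 42, or 16.7%, against 4.38% of all genes, and these were PSMA4, PSMB4, PSMB8, PSMB10, PSME1, PSME2 and PSMG4. The letters TTCNNNGAA of gamma-activated sites stood in 8 of 42 genes against 9.38% of all genes, and CCAAT in 20 of 42 against 39.7%. A gene was counted if any of its windows held the letters. The genes compared were not matched to these 42 for number of windows or GC content, and the part of these in the shares was not tested. A match describes the letters and does not show that a factor binds there.

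The following windows are those of 4 genes called in a comparison and of 2 interferon-inducible genes that were not, with 1 motif per gene in capitals. PSMC4 and PSME4, which were higher in both resistant lines, and PSMG1, which was lower in both, have the antioxidant response type in capitals, on the reverse strand in the first pair. PSMB5 has the CCAAT box in capitals, and PSMB10 and PSME2, the interferon-inducible genes, have the interferon response type. The window of PSMG1 is set by a transcript start inside the gene and not by its outermost end.
PSMC4, chr19:39970915-39971214, plus strand: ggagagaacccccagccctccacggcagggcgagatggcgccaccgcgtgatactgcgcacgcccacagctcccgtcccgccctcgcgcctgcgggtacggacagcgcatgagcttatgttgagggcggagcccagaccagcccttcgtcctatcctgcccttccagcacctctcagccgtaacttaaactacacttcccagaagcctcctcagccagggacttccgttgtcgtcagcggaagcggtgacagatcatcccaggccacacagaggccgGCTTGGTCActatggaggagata
PSME4, chr2:53970944-53971243, minus strand: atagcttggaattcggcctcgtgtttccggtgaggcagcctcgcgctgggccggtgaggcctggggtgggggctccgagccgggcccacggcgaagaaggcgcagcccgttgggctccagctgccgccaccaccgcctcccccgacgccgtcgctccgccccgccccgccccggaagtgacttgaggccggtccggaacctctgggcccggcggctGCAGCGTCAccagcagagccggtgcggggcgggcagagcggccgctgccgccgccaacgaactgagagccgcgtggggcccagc
PSMG1, chr21:39183402-39183701, minus strand: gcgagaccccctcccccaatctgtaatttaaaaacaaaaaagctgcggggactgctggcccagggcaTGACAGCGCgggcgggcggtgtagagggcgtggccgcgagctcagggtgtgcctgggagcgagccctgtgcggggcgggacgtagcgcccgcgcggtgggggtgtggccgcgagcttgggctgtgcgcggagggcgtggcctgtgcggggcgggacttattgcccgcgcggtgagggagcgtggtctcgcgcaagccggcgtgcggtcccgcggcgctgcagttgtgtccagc
PSMB5, chr14:23035171-23035470, minus strand: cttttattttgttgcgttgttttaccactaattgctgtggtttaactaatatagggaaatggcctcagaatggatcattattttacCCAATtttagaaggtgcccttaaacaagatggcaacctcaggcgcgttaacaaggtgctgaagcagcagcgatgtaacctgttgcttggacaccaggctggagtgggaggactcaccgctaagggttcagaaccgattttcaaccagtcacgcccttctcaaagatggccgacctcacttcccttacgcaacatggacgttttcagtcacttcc
PSMB10, chr16:67936801-67937100, minus strand: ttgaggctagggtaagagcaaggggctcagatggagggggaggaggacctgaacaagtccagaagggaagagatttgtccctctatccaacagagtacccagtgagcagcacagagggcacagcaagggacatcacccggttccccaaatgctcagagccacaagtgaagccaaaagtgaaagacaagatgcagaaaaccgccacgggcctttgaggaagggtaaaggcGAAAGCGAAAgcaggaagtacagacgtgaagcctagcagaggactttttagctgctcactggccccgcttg
PSME2, chr14:24146561-24146860, minus strand: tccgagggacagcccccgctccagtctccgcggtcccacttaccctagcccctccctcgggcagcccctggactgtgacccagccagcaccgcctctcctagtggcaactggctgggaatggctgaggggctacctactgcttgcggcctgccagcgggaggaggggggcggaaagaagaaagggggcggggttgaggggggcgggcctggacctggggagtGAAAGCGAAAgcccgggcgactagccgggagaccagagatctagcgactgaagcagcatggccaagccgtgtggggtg
The interferon response letters end 12 bases before the transcript start in PSMB10 and 19 before it in PSME2. The antioxidant response letters occurred in 5 of the 21 members called higher in LIM1215-R1 that have a window and in 7 of the 16 not called, so they were not confined to genes that rose. In LIM1215-R2 they occurred in 4 of 10 called higher, in both of the called lower genes with a window, and in 7 of 26 not called.

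The alpha ring, which gates the entry to the core particle, had 2 called genes, a count that depended on the handling of GC content and length. Of PSMA1 to PSMA7, 2 were called in LIM1215-R1, both higher, and 0 in LIM1215-R2 at the adjusted p of 0.01, where 1 of the 7 had an unadjusted p below 0.05. By comparison, 24.3% and 21.8% of genes of at least 50 CPM were called higher in these lines. For LIM1215-R1 the count of the ring was therefore near that background. PSMA3 rose by 13.1% (log2 fold change 0.18, SE 0.0517, adjusted p = 0.00786 with edgeR) and PSMA5 by 14.0% (0.19, SE 0.0482, adjusted p = 0.00263) in LIM1215-R1. With trends on these removed, PSMA1, PSMA4 and PSMA6 were also called higher in LIM1215-R1, and PSMA1 and PSMA3 in LIM1215-R2. The median log2 fold change of the ring was 0.12 in LIM1215-R1 and 0.01 in LIM1215-R2. Exons of PSMA1, PSMA2 and PSMA6 overlap another gene model on the same strand over 67%, 100% and 81.4% of their length, so reads may have been shared out or discarded there.

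Genes of the beta ring were called higher in LIM1215-R1, and in LIM1215-R2 none was unless GC content and length trends were removed, when PSMB2 (0.13, adjusted p = 0.00901 with edgeR) and PSMB7 (0.12, adjusted p = 0.0094) were. Of its 6 counted genes, 4 rose in LIM1215-R1, with a median log2 fold change of 0.25, and 0 rose in the other line, where the median was 0.03 and 2 genes had an unadjusted p below 0.05. Among genes of at least 50 CPM, 24.3% were called higher in LIM1215-R1 and 21.8% in LIM1215-R2. PSMB5 (chr14:23025851-23035220), which encodes the chymotrypsin-like site that bortezomib binds, measured 150.9, 155.8 and 155.0 CPM in LIM1215-parental, 182.4, 190.4 and 180.5 CPM in LIM1215-R1, and 155.1, 156.8 and 164.4 CPM in LIM1215-R2. All LIM1215-R1 libraries exceeded those of the other lines, while LIM1215-R2 and parental libraries overlapped. The gene was higher by 19.8% in LIM1215-R1 (log2 fold change 0.26, SE 0.0467, adjusted p = 5.54e-05 with edgeR), and in LIM1215-R2 it stood 0.04 above parental on the log2 scale (SE 0.0469, adjusted p = 0.529).

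PSMB7 (chr9:124353465-124415442), the trypsin-like site, showed the same order. Its level was 129.1, 131.2 and 126.0 CPM in LIM1215-parental, 156.5, 153.1 and 152.4 CPM in LIM1215-R1, and 129.2, 139.2 and 136.7 CPM in LIM1215-R2. Again LIM1215-R1 stood above both other lines, which overlapped. The log2 fold change was 0.26 in LIM1215-R1 (SE 0.0482, adjusted p = 9.24e-05 with edgeR) and 0.07 in LIM1215-R2 (SE 0.0485, adjusted p = 0.314).

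PSMB4, a structural subunit, measured 172.5, 191.2 and 181.1 CPM in LIM1215-parental, 199.1, 227.5 and 214.3 CPM in LIM1215-R1, and 183.7, 176.7 and 193.1 CPM in LIM1215-R2. It rose in LIM1215-R1 (0.23 on the log2 scale, SE 0.0531, adjusted p = 0.000822 with edgeR), a call that was lost without parental replicate 1 at an adjusted p of 0.0108. PSMB2, also structural, rose by 0.26 in LIM1215-R1 (SE 0.0465, adjusted p = 6.34e-05), and PSMB1 was not called in either line.

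PSMB6 (chr17:4796164-4798495), the caspase-like site, differed from the other catalytic genes. Its level was 102.6, 113.2 and 108.0 CPM in LIM1215-parental, 102.7, 107.8 and 102.1 CPM in LIM1215-R1, and 91.6, 85.4 and 98 CPM in LIM1215-R2. LIM1215-R1 overlapped the parental libraries, and LIM1215-R2 lay below both. The log2 fold change was -0.05 in LIM1215-R1 (SE 0.0568, adjusted p = 0.556 with edgeR) and -0.24 in LIM1215-R2 (SE 0.0572, adjusted p = 0.00189). Leaving out LIM1215-R2 replicate 1 (-0.23, adjusted p = 0.0103) or replicate 2 of that line (-0.19, adjusted p = 0.0311) ended the call of the fall. The ratio of PSMB5 to PSMB6 CPM, chosen after the values were seen, was 1.38 to 1.47 in LIM1215-parental, 1.77 in each LIM1215-R1 library and 1.68 to 1.84 in LIM1215-R2.

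In the direct comparison of LIM1215-R2 with LIM1215-R1, 3 members were called lower and 0 higher with edgeR, and DESeq2 gave the same counts, where 3.77% of all genes were called lower and 3.39% higher, and 6.31% and 6.81% of those of at least 50 CPM. The members' share called lower was near that of genes of like level. With the size limit of 1.5 the count was 0, against 0.764% of all genes and 0.0210% of those of at least 50 CPM. The 3 called lower were PSMB5 (log2 fold change -0.22, SE 0.0466, adjusted p = 0.00195), PSMB4 (-0.21, SE 0.0531, adjusted p = 0.00739) and PSMB7 (-0.19, SE 0.0482, adjusted p = 0.00808). In 20 of 44 members each LIM1215-R2 library was below each LIM1215-R1 library, against 14.0% of all genes and 19.7% of those of at least 50 CPM, and in 0 members was it the reverse, against 14.0% and 21.0%. The members' median was -0.09, and 5 of 44 had a value above 0, against 49.3% of all genes and 49.6% at that level. An unadjusted p below 0.05 was reached by 18 members, all with lower values in LIM1215-R2. Of the calls, 0 remained without LIM1215-R2 replicate 1 or without replicate 2, and 1 without LIM1215-R1 replicate 2, without LIM1215-R1 replicate 3 or without parental replicate 3. The differences themselves changed little without LIM1215-R2 replicate 1 or 2, to -0.20 and -0.21 for PSMB5, -0.21 and -0.18 for PSMB4, and -0.16 and -0.21 for PSMB7.

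**Figure D3:**
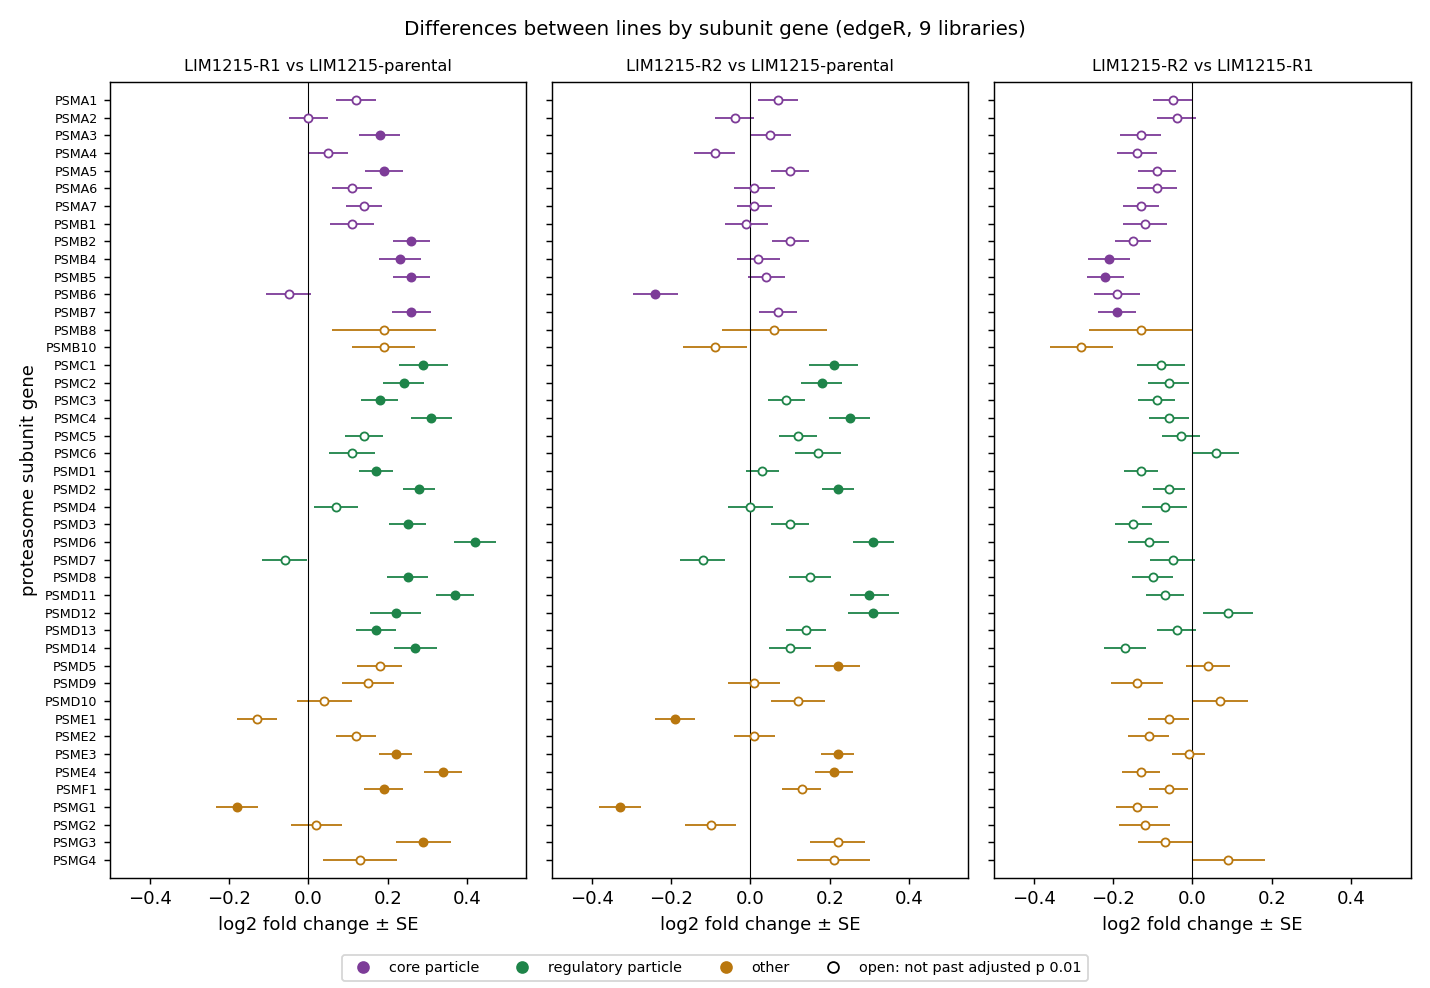
Log2 fold change with its SE for the 44 members in the 3 comparisons, from a fit to 9 libraries, with colours for core particle, regulatory particle and other members and filled points for an adjusted p of at most 0.01. Against parental cells, the regulatory particle has 13 filled points to the right of 0 in LIM1215-R1 and 7 in LIM1215-R2. Among genes of at least 50 CPM, 24.3% and 21.8% were called higher in these lines. Between the resistant lines the filled points are PSMB4, PSMB5 and PSMB7, where 6.31% of genes of that level were called lower.

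The immunosubunits stayed far below their constitutive partners in the 3 lines. PSMB8 (chr6:32840717-32844679), which replaces PSMB5, measured 9.91, 11.2 and 7.67 CPM in LIM1215-parental, 9.69, 11.9 and 10.8 CPM in LIM1215-R1, and 8.68, 10.8 and 10.2 CPM in LIM1215-R2. PSMB10 (chr16:67934506-67936850), which replaces PSMB7, measured 25.1, 26.7 and 24.8 CPM in LIM1215-parental, 27, 30 and 30.3 CPM in LIM1215-R1, and 25.5, 22.2 and 24 CPM in LIM1215-R2. The PSMB8 libraries of the lines overlapped, and PSMB10 was highest in the LIM1215-R1 libraries. Per kilobase of transcript, the parental means were 8.54 for PSMB8 against 147.4 for PSMB5 and 26.2 for PSMB10 against 130.8 for PSMB7, in CPM per kilobase, but the level of PSMB8 is uncertain because of its alternate sequence, and 56.1% of the exons of PSMB10 overlap another gene model.

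Neither immunosubunit was called in the edgeR fit of the 3 lines without a block. The log2 fold change of PSMB8 was 0.19 in LIM1215-R1 (SE 0.131, adjusted p = 0.304 with edgeR) and 0.06 in LIM1215-R2 (SE 0.133, adjusted p = 0.79). That of PSMB10 was 0.19 (SE 0.0791, adjusted p = 0.0633) and -0.09 (SE 0.0808, adjusted p = 0.43), and between the resistant lines -0.28 (SE 0.0799, adjusted p = 0.0173), which became a call without LIM1215-R1 replicate 1 (-0.34, adjusted p = 0.00734) or under the replicate block (-0.28, adjusted p = 0.00861). The ratio of PSMB8 to PSMB5 within a library was 0.0495 to 0.0719 in LIM1215-parental, 0.0531 to 0.0623 in LIM1215-R1 and 0.056 to 0.0691 in LIM1215-R2, and that of PSMB10 to PSMB7 was 0.195 to 0.204, 0.172 to 0.199 and 0.16 to 0.197. The mean log2 ratio of PSMB8 to PSMB5 differed from parental by -0.08 in LIM1215-R1 (exact two-sided permutation p = 0.7) and 0.01 in LIM1215-R2 (exact p = 1). For PSMB10 to PSMB7 the differences were -0.07 (exact p = 0.5) and -0.17 (exact p = 0.3). With 3 against 3 libraries the smallest possible p is 0.1, so these tests could not pass 0.05, and no ratio of PSMB9 to PSMB6 was formed from 3 counts.

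**Figure D4:**
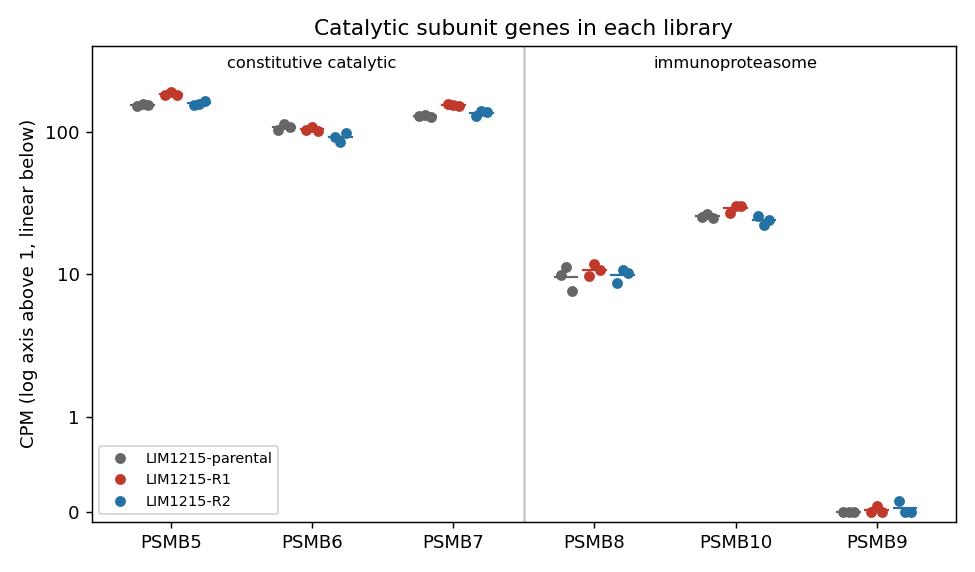
CPM of the constitutive catalytic genes and the immunosubunit genes, with 1 point per library, bars at the mean of 3 libraries per line, and an axis that is logarithmic above 1 and linear below. PSMB5, PSMB6 and PSMB7 lie between 85.4 and 190.4 CPM, PSMB10 between 22.2 and 30.3 CPM, PSMB8 between 7.67 and 11.9 CPM, and PSMB9 at or near 0.

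Several other interferon-inducible genes rose in the same libraries. Of 12 listed partners of the immunosubunits in antigen processing and interferon signalling, 7 were called higher and 1 lower in LIM1215-R1, and 6 higher and 1 lower in LIM1215-R2, against 14.0% and 13.4%, and 12.3% and 11.6%, of all genes tested. The lower gene was ERAP1, a peptidase that trims peptides for class I molecules, with -0.43 and -0.42 on the log2 scale. ISG15, an interferon-induced ubiquitin-like modifier, rose from 2.57 ± 0.192 CPM (SD, n = 3) to 22.7 ± 2.58 CPM in LIM1215-R1 cells and 20.3 ± 5.97 CPM in those of LIM1215-R2, with log2 fold changes of 3.15 and 2.99. Its conjugating enzyme UBE2L6 rose by 1.65 and 1.22, IRF9, a subunit of the interferon-activated ISGF3 complex, by 1.56 and 1.78, and NLRC5, the transactivator of class I antigen presentation genes and of PSMB9, by 0.96 and 0.84. B2M, the light chain of class I molecules, rose by 0.54 and 0.48. TAP2, a subunit of the peptide transporter, rose by 1.23 in LIM1215-R1, but had 181 counts in all 9 libraries and lies in the same region of chromosome 6 as PSMB8. IRF1, a main activator of immunosubunit genes, was at 17.7 ± 0.99, 18.4 ± 1.39 and 15.5 ± 1.49 CPM in parental, LIM1215-R1 and LIM1215-R2 cells (SD, n = 3) and was not called.

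The regulatory particle supplied 13 of the 23 members called higher in LIM1215-R1. Of its 17 genes, 13 were called higher and 0 lower in LIM1215-R1 with a median log2 fold change of 0.24, and 7 higher and 0 lower in LIM1215-R2 with a median of 0.15. Genes of at least 50 CPM were called higher at 24.3% and lower at 19.5% in LIM1215-R1, and at 21.8% and 17.1% in LIM1215-R2. The sum of its genes was 2428.7 to 2458.0 CPM in LIM1215-parental, 2824.4 to 2880.4 CPM for LIM1215-R1 and 2678.1 to 2720.2 CPM for LIM1215-R2. The 13 constitutive core genes summed to 2006.0 to 2044.5, 2235.0 to 2249.0 and 2030.5 to 2073.4 CPM. Core and regulatory sums were thus both above the parental range in LIM1215-R1, whereas in LIM1215-R2 the core sum overlapped it and the regulatory sum did not.

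The lid, which includes the enzyme that removes ubiquitin chains from the substrate, had 7 of 8 genes called higher for LIM1215-R1 and 3 of 8 for LIM1215-R2. Of genes of at least 50 CPM, 24.3% and 21.8% were called higher in these lines. PSMD6, a scaffold subunit of the lid, measured 92.1, 90.5 and 92.9 CPM in LIM1215-parental, 127.4, 117.1 and 123.3 CPM in LIM1215-R1, and 114.2, 117.3 and 109.1 CPM in LIM1215-R2. This was the widest increase of a member in LIM1215-R1, 33.4% (log2 fold change 0.42, SE 0.0521, adjusted p = 2.73e-07 with edgeR), and in LIM1215-R2 it was 23.6% (0.31, SE 0.0523, adjusted p = 3.26e-05). All resistant libraries lay above all parental ones.

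PSMD11, another lid scaffold subunit, measured 158.3, 151.7 and 151.5 CPM in LIM1215-parental, 185.9, 202.0 and 208.3 CPM in LIM1215-R1, and 190.2, 189.7 and 188.3 CPM in LIM1215-R2. It rose by 29.2% in LIM1215-R1 (log2 fold change 0.37, SE 0.0485, adjusted p = 6.06e-07 with edgeR) and by 23.1% in LIM1215-R2 (0.30, SE 0.0486, adjusted p = 1.55e-05), again without overlap with the parental libraries. PSMD12 measured 111.1, 99.1 and 116.1 CPM in LIM1215-parental, 134.1, 113.0 and 134.2 CPM in LIM1215-R1, and 138.9, 138.3 and 128.6 CPM in LIM1215-R2. Its increase was called in LIM1215-R2 (0.31, SE 0.0643, adjusted p = 0.000334). In LIM1215-R1 its libraries overlapped the parental ones, and the call (0.22, SE 0.0645, adjusted p = 0.00748) was lost in 6 of the 9 fits that left out 1 library, with adjusted p up to 0.0665 without LIM1215-R1 replicate 3. This call was also lost with total counts only (0.19, adjusted p = 0.0246 with edgeR) and with the 6 libraries of the comparison (0.23, adjusted p = 0.0199).

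PSMD14, the deubiquitinating enzyme of the lid, rose in LIM1215-R1 by 0.27 (SE 0.0532, adjusted p = 0.000174 with edgeR), and its log2 fold change in LIM1215-R2 was 0.10 (SE 0.0534, adjusted p = 0.155). PSMD3, PSMD8 and PSMD13 rose in LIM1215-R1 by 0.25, 0.25 and 0.17. PSMD7, the partner of PSMD14, was the lid gene not called in LIM1215-R1, with a log2 fold change of -0.06, and it was not called in LIM1215-R2 either, with -0.12.

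The base holds the ring of 6 ATPases that unfold substrates, of which 4 were called higher in LIM1215-R1 and 3 in LIM1215-R2. Both counts rest on 6 genes, and 24.3% and 21.8% of genes of at least 50 CPM were called higher in these lines. PSMC4 measured 110.4, 115.0 and 108.1 CPM in LIM1215-parental, 129.9, 140.3 and 142.7 CPM in LIM1215-R1, and 129.6, 135.6 and 131.8 CPM in LIM1215-R2. All resistant libraries exceeded all parental ones, with log2 fold changes of 0.31 (SE 0.0513, adjusted p = 2.06e-05 with edgeR) and 0.25 (SE 0.0514, adjusted p = 0.000294). PSMC1 measured 50.7, 50.9 and 49.7 CPM in LIM1215-parental, 59.5, 62.8 and 63 CPM in LIM1215-R1, and 54.2, 59.3 and 61.5 CPM in LIM1215-R2. Its log2 fold change was 0.29 in LIM1215-R1 (SE 0.0615, adjusted p = 0.00039) and 0.21 in LIM1215-R2 (SE 0.0618, adjusted p = 0.00972). The latter call was lost in 6 of 9 fits without 1 library, with adjusted p up to 0.0674 without LIM1215-R2 replicate 3. It was also lost with the DESeq2 Wald test (0.21, adjusted p = 0.0117) and with total counts only (0.19, adjusted p = 0.0173 with edgeR). PSMC2 rose in both lines, by 0.24 and 0.18, and PSMC3 in LIM1215-R1 by 0.18, while PSMC5 and PSMC6 were not called.

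Of the other base subunits, PSMD2, a scaffold for ubiquitin receptors and shuttle factors, was the most abundant member by CPM. It rose from 319.9 ± 8.31 CPM (SD, n = 3) to 387.9 ± 4.47 CPM in LIM1215-R1 cells and 372.4 ± 5.78 CPM in those of LIM1215-R2, with log2 fold changes of 0.28 (SE 0.0403, adjusted p = 2.79e-06 with edgeR) and 0.22 (SE 0.0403, adjusted p = 8.32e-05). PSMD1, the related scaffold, rose in LIM1215-R1 by 0.17 (SE 0.0423, adjusted p = 0.00226). The ubiquitin receptor PSMD4 was not called, with log2 fold changes of 0.07 and 0.00. Among the base chaperones, which guide base assembly and leave the finished complex, PSMD9 and PSMD10 were not called in either line. PSMD5 measured 87.6, 80 and 86 CPM in LIM1215-parental, 101.9, 90.8 and 95.6 CPM in LIM1215-R1, and 97.2, 101.3 and 97.7 CPM in LIM1215-R2. It was called in LIM1215-R2 (0.22, SE 0.0563, adjusted p = 0.00266) and missed the limit in LIM1215-R1 (0.18, SE 0.0563, adjusted p = 0.0113), though the parental libraries lay below all resistant ones. In LIM1215-R1 it was called in 9 settings, among them a looser adjusted p limit of 0.05, at which its value was unchanged. Others were the DESeq2 Wald test (0.19, adjusted p = 0.00828) and removal of GC content and length trends (0.25, adjusted p = 2.75e-06 with edgeR). Leaving out parental replicate 2 (0.19, adjusted p = 0.0139) or LIM1215-R2 replicate 2 (0.20, adjusted p = 0.0221) ended the call in LIM1215-R2.

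The activators, caps that open the core without the regulatory particle, moved in opposite directions. PSME4, a large single-chain activator of the nucleus, measured 125.7, 119.9 and 124.2 CPM in LIM1215-parental, 162.1, 151.8 and 154.4 CPM in LIM1215-R1, and 141.8, 142.7 and 144.1 CPM in LIM1215-R2. The 3 lines did not overlap, with log2 fold changes of 0.34 in LIM1215-R1 (SE 0.0479, adjusted p = 1.88e-06 with edgeR) and 0.21 in LIM1215-R2 (SE 0.0481, adjusted p = 0.000948). PSME3, the subunit of the nuclear ring-shaped activator, rose by 0.22 in both lines.

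PSME1 and PSME2, the interferon-inducible subunits of the cytosolic ring activator, did not move together. PSME1 measured 115.7, 118.1 and 120.8 CPM in LIM1215-parental, 104.2, 108.5 and 111.6 CPM in LIM1215-R1, and 104.1, 100.7 and 107.1 CPM in LIM1215-R2. All resistant libraries lay below the parental ones, and the decrease was called in LIM1215-R2 (log2 fold change -0.19, SE 0.051, adjusted p = 0.00559 with edgeR) but not in LIM1215-R1 (-0.13, SE 0.0509, adjusted p = 0.0489). The LIM1215-R2 call was lost in 4 of the 9 fits without 1 library, with adjusted p up to 0.0441 without LIM1215-R2 replicate 2. Without a filter on low counts it was lost as well (-0.18, adjusted p = 0.0108 with edgeR). PSME2 measured 107.6, 104.1 and 106.6 CPM in LIM1215-parental, 113.7, 116.7 and 115.9 CPM in LIM1215-R1, and 100.9, 109.6 and 110.8 CPM in LIM1215-R2, and was not called in either line (0.12, SE 0.0514, adjusted p = 0.0676, and 0.01, SE 0.0516, adjusted p = 0.893).

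PSMF1, which inhibits the isolated core particle, rose in LIM1215-R1 by 0.19 on the log2 scale (SE 0.0491, adjusted p = 0.00357 with edgeR) and reached 0.13 in LIM1215-R2 (SE 0.0492, adjusted p = 0.0521). Among the chaperones that assemble the core, PSMG1 was the only member called lower in both comparisons with parental cells. It measured 108.4, 102.6 and 105.9 CPM in LIM1215-parental, 90.3, 95.7 and 93.1 CPM in LIM1215-R1, and 80.8, 84.7 and 87 CPM in LIM1215-R2. The 3 lines did not overlap. The log2 fold change was -0.33 in LIM1215-R2 (SE 0.053, adjusted p = 1.45e-05), a fall that kept its call in every setting run. In LIM1215-R1 it was -0.18 (SE 0.0526, adjusted p = 0.0067), and this call was lost in 5 of the 9 fits without 1 library, with adjusted p up to 0.0387 without parental replicate 1. Across all settings the call was lost in 10. Among them were DESeq2 size factors (-0.18, adjusted p = 0.0102 with edgeR) and removal of GC content and length trends (-0.12, adjusted p = 0.0328). PSMG2, with which PSMG1 forms a dimer, was not called (0.02 and -0.10), and PSMG3 rose in LIM1215-R1 (0.29, SE 0.0687, adjusted p = 0.0014).

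Proteasome genes without a PSM number showed small changes in both directions. Of 9 further components and assembly factors, 3 were called higher and 1 lower in LIM1215-R1, and 3 higher and 0 lower in LIM1215-R2, and none of the 9 changed by 0.5 or more on the log2 scale. Of 8 genes around NRF1, 3 were called higher and 1 lower in each line. For both lists the background of genes with at least 50 CPM was 24.3% higher and 19.5% lower in LIM1215-R1, and 21.8% and 17.1% in the other line. Some genes of these lists lay below 50 CPM. Over all genes tested the shares were 14.0% higher and 13.4% lower in LIM1215-R1, and 12.3% and 11.6% in LIM1215-R2. NFE2L1 itself was at 207.9 ± 4.81, 207.5 ± 5.97 and 205.6 ± 6.76 CPM in parental, LIM1215-R1 and LIM1215-R2 cells (SD, n = 3), with log2 fold changes of 0.00 and -0.02. Since NRF1 is regulated through its own cleavage and degradation, its transcript level does not measure its activity. Its relative NFE2L3 rose by 0.55 in LIM1215-R1 and 0.45 in LIM1215-R2, SYVN1, a ubiquitin ligase that degrades NRF1, by 0.45 and 0.52, and NFE2L2, which encodes NRF2, fell by 0.33 and 0.29 on the log2 scale.

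Of 14 genes of ubiquitin supply and delivery, 5 were called higher and 0 lower in LIM1215-R1, and 3 higher and 1 lower in LIM1215-R2. Among genes of at least 50 CPM, 24.3% were called higher and 19.5% lower in LIM1215-R1, and 21.8% and 17.1% in LIM1215-R2, so the share higher in LIM1215-R2 was near that background. UBB, a ubiquitin precursor gene, was at 359.2 ± 24.1, 449.6 ± 41.3 and 340.7 ± 19.1 CPM in parental, LIM1215-R1 and LIM1215-R2 cells (SD, n = 3). It rose in LIM1215-R1 (0.32, SE 0.0565, adjusted p = 3.94e-05 with edgeR) and was lower in LIM1215-R2 than in LIM1215-R1, with -0.40 on the log2 scale (SE 0.0566, adjusted p = 1.19e-05).

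The number of called members depended on how library-specific trends were handled. When each library's dependence on GC content and on transcript length was taken out, an alternative added after the data were seen, 19 members were called higher in LIM1215-R2, including all 10 of the main result, where 15.5% of all genes were called higher. In LIM1215-R1 the count was 26, of which 21 were among the 23, with 16.9% of all genes called higher, and the lower gene was PSME1 in place of PSMG1. PSMC3 (0.10, adjusted p = 0.0318 with edgeR) and PSMG3 (0.15, adjusted p = 0.0428) lost their calls as higher. PSMA1, PSMA4, PSMA6, PSMC6 and PSMD5 gained such a call. Between the resistant lines 9 members were then lower, where 5.66% of all genes were. Shares among genes of at least 50 CPM were not computed with these trends removed. The part of such trends in the differences between lines was not tested further.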

How the data were processed

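RNA of 3 libraries per line was measured as stranded, paired-end poly(A) libraries. Alignment by the authors used STAR and hg38, and htseq-count 0.9.1, set to reverse strand, gave the deposited raw counts per gene symbol, which are not normalized. The annotation is not given in the sources used here. Libraries were grouped by line. Genes with at least 10 counts over 9 libraries, 19102 in all, were scaled by TMM and fitted with edgeR 4.0.16 in R 4.3.3 (quasi-likelihood, lines as groups, Benjamini-Hochberg over all genes). Members with an adjusted p of at most 0.01 were called, of any size. SEs follow from the fold change and its test statistic. CPM used TMM factors, and CPM per kilobase the canonical GENCODE transcript. Counts of pseudogenes named after members amounted to 0.166% of the members' counts. Alternate sequences of hg38 were aligned with minimap2 2.31 (at least 10000 bases, 99% identity). Positions came from RefSeq.

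Members, gene lists and motifs were chosen with earlier results of these data known. Values in every library are given for catalytic subunits, PSME1, PSME2 and, per comparison, up to 5 called members in each direction by log2 fold change. Genes of the other lists were to be named from an absolute log2 fold change of 0.5. Below it, ERAP1, IRF1, NFE2L1, NFE2L2 and UBB were named after their values were seen. A gene of these lists is not reported here. Alternatives included DESeq2 1.42.0, other filters and scalings, a replicate block, and each library left out. The tests were tried on simulated data. Counts limit precision through counting error, which intervals from 3 counts cover alone.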

Additional observations from a re-analysis of the deposited data

Results flagged for a closer look

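The log2 fold change against parental cells differed between the resistant lines for PSMB5, PSMB4 and PSMB7 by a direct test in the fit to 9 libraries. LIM1215-R2 minus LIM1215-R1 was -0.22 for PSMB5, -0.21 for PSMB4 and -0.19 for PSMB7, with adjusted p of 0.00195, 0.00739 and 0.00808 (edgeR). In each of these genes all 3 LIM1215-R2 libraries lay below all 3 LIM1215-R1 libraries. They were 3 calls among 44 members, where 6.31% of genes of at least 50 CPM were called lower. The number of calls was therefore near that of genes of like level. The PSMB5 call ended when LIM1215-R2 replicate 1 (-0.20, adjusted p = 0.0219) or replicate 2 of that line (-0.21, adjusted p = 0.0201) was left out, and held in the other settings run. PSMB4 lost its call in 6 settings and PSMB7 in 10, with adjusted p up to 0.0774 and 0.0777, and the differences stayed below 0 throughout.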

How the results depend on the processing

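Of 48 results for named members in a comparison, 23 were called, and 13 kept their call in every setting run. Of 25 not called, 7 were called in at least 1 setting. The count of members higher in LIM1215-R1 (23) ranged from 16 to 30 over all settings and from 16 to 23 when each library was left out. The 1 lower member in LIM1215-R1 became 0 without a filter on low counts, with DESeq2 size factors or with 6 libraries, 2 at an adjusted p of 0.05, and 0 to 1 with a library left out. The 10 higher members in LIM1215-R2 became 19 once GC content and length trends were removed and 23 with the replicate block as well, and 7 to 12 with a library left out, while the 3 lower ones became 1 to 3, with 1 left without LIM1215-R2 replicate 1 or 2. Members lower in LIM1215-R2 than in LIM1215-R1 (3) numbered 1 with total counts only, 7 with the replicate block, 9 at an adjusted p of 0.05, 9 with trends removed, 11 with trends removed and the block, and 0 to 4 with a library left out. Shares of all genes called are given for the main fit and for trends removed without the block. For other settings they were not computed, so the counts of members there have no background. Deviations from the line means correlated at -0.0186 to 0.0984 between same-numbered libraries of different lines, and at -0.106 to 0.0648 between other pairs. With 3 libraries per line, these values cannot decide whether same-numbered libraries shared a step. With total counts in place of TMM, the mean core sum was 2046.9 CPM in LIM1215-parental and 2216.4 in LIM1215-R1 (main 2023.1 and 2243.4), and the regulatory sum 2471.2 and 2809.4 (main 2442.5 and 2843.6). The PSMB8 to PSMB5 difference changed sign, to 0.03 in LIM1215-R1 without parental replicate 2, and in LIM1215-R2 to -0.15 without parental replicate 3 and -0.06 without LIM1215-R2 replicate 2, with ranges of -0.24 to 0.03 and -0.15 to 0.12. Uncalled differences near 0 also changed sign. In LIM1215-R2 these were PSMB8 (-0.09 to 0.18), PSMB4 (-0.01 to 0.06) and PSME2 (-0.01 to 0.05) with a library left out, and PSME2 with total counts only (0.00). Between the resistant lines they were PSMD5 with a library left out (0.00 to 0.08) and, with trends removed, PSME1 (0.01), PSMD12 (-0.02) and PSMD5 (-0.02), and with the block as well 0.01, -0.01 and -0.02. The cause of these changes was not tested. Scaling moved the median of all genes to between -0.04 and 0.02. Low counts limit PSMB8, which had the widest SE of the members.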
